A study of Mus musculus with 6 samples.

Results

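Integrin subunits and the receptors by which hematopoietic stem cells (HSCs) find and hold their niche were examined on expression arrays of PU.1 knock-in and wild-type mice. The 9 genes were Itga4, Itga6, Itgal, Itgam, Itgb1, Itgb2, Cxcr4, Selplg and Cd44, which are 9 of 18193 named genes on the array. Every probe set that the platform annotation assigns to one of these symbols was taken, which gave 23 of the 45037 probe sets tested. Itgb1 had 6 probe sets, Itga4 had 5, Cd44 had 4, Itga6 and Itgal had 2 each, and the other genes had 1 each. RNA came from adult HSCs sorted without lineage markers or CD48 and with Sca1, cKit and CD150, and each array held 1 RNA sample. There were 3 arrays of homozygous PU.1 ki/ki mice and 3 arrays of wild-type mice, all adult, with no treatment named. PU.1, the product of Spi1, belongs to the ETS factors and directs the formation of myeloid and lymphoid cells. The study's title concerns how PU.1 regulates its own gene and limits HSC proliferation. The labels say only that the mice are knock-in mice. What was knocked in, the strain, the sex and any pooling of animals are not given in the sources used here. Nothing says that replicates came from separate animals, and the p-values therefore reflect no more than the spread among these samples, which may be technical.

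Integrins are heterodimers of 1 alpha and 1 beta chain that bind matrix and cell-surface ligands once signals from inside the cell switch them on. On HSCs alpha4beta1 binds VCAM-1 and fibronectin in the marrow, and alpha6beta1 binds laminins. The beta2 integrins alphaLbeta2 (LFA-1) and alphaMbeta2 (Mac-1, CD11b/CD18) are leukocyte receptors for ICAMs and complement. CXCR4 is the receptor for the chemokine CXCL12 that retains HSCs in the marrow. Selplg encodes PSGL-1, a ligand of the selectins, and Cd44 encodes a receptor for hyaluronan that can also carry selectin-binding glycans. CD11b is in addition a lineage marker, so the sort itself removes cells with much Itgam product.

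Promoter sequence is shown for the members that hold a PU.1-type ETS core, because the groups differ in a PU.1 knock-in. Windows from 250 bases before to 50 bases after the annotated start were found in RefSeq sequence (GRCm38.p6) for 5 of the 9 members, namely Itga4, Itgam, Itgb1, Cxcr4 and Cd44. The letters GAGGAA, read on both strands (TTCCTC on the opposite strand), occurred in 3 of these 5 windows and in 28.3% of all 32851 windows of that length. The longer GAGGAAG, which contains the first motif, occurred in 2 of the 5 and in 13.6% of all. The Itgam window, chr7:128062390-128062689 on the plus strand, held 3 matches, the farthest upstream beginning 84 bases before the start. The Itgb1 window, chr8:128685404-128685703 on the plus strand, held 1 match that begins 9 bases before the start. The Cd44 window, chr2:102901616-102901915 on the minus strand, held 2 matches, which begin 243 and 220 bases before the start. No match was found in the windows of Itga4 and Cxcr4. A match is a description of these letters and not a binding site. Capitals mark the GAGGAA or TTCCTC letters, and each sequence is written 5′ to 3′ on the strand of its gene.
Itgam: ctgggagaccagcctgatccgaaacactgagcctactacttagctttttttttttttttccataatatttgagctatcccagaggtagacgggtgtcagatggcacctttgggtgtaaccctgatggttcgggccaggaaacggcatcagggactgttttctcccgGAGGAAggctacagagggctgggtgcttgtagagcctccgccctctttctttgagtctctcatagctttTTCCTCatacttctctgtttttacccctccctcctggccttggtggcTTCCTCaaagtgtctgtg
Itgb1: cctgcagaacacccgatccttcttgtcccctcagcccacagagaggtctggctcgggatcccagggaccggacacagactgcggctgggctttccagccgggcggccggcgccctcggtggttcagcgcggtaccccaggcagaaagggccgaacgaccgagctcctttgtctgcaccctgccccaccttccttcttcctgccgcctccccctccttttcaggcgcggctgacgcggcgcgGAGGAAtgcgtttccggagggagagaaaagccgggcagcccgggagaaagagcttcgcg
Cd44: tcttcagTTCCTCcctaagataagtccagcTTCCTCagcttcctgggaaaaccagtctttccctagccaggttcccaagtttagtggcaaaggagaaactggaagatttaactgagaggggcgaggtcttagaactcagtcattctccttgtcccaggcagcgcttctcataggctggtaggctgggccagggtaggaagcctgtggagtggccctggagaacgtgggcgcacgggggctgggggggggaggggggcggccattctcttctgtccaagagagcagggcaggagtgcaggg

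Wild-type replicates 2 and 3 stood apart from the other arrays. Pairs of PU.1 ki/ki arrays correlated at 0.940 to 0.951 (Pearson, log2 intensity over probe sets) and pairs of wild-type arrays at 0.831 to 0.858. Wild-type replicate 1 correlated at 0.919 to 0.926 with the PU.1 ki/ki arrays, more closely than with its own group (0.847 to 0.858). A bright probe set (log2 of the median of the other 5 arrays at least 9) counted as lost where it lay at least 4-fold below that median. By this count 0.119 to 0.219% were lost in PU.1 ki/ki HSCs, against 1.12% on wild-type replicate 1 and 11.5 and 11.3% on wild-type replicates 2 and 3. Among the members 1 probe set was lost on any array, Itgb1 1426918_at on wild-type replicate 3. Spi1 read 170, 212 and 161 in PU.1 ki/ki HSCs, against 158, 195 and 199 in wild type, so this transcript does not check the labels. HSC genes were read on all arrays, with Hlf at 1083 to 2407 in PU.1 ki/ki HSCs, against 1161 to 2678 in wild type, and Mecom at 1093 to 2326 in PU.1 ki/ki HSCs and 1204 to 1428 in wild type. Slamf1, which encodes the CD150 of the sort, read 696, 1525 and 170 in PU.1 ki/ki HSCs, against 440, 54 and 42 in wild type. In PU.1 ki/ki all 9 measured HSC genes had a mean above the median of all probe sets (49.8). Of 13 granulocyte and monocyte genes, 10 had a PU.1 ki/ki mean above that median, and the list had a summed intensity of 17614 to 23803 in PU.1 ki/ki HSCs, against 21298 to 28305 in wild type. Of these, Lyz2 read 4181 to 4759 in PU.1 ki/ki HSCs, against 4169 to 5457 in wild type, and Mpo 3027 to 4251 in PU.1 ki/ki HSCs and 3409 to 6717 in wild type. The macrophage gene C1qb read 567, 119 and 73 in PU.1 ki/ki HSCs and was at the minimum of 10 on all wild-type arrays. Groups did not overlap for 2 of the 13 genes of that list (15.4%), beside 12.8% of all genes. The other was S100a8, in the opposite direction. It read 2284, 3040 and 2754 in PU.1 ki/ki HSCs, against 3642, 3265 and 4133 in wild type. The remaining genes of the list overlapped. C1qa read 39, 47 and 19 in PU.1 ki/ki HSCs, against 33, 26 and 18 in wild type. Adgre1 read 16, 18 and 14 against 25, 11 and 10, and Cd14 read 20, 14 and 24 against 19, 31 and 28. Csf1r read 534, 209 and 648 against 88, 465 and 107, higher on average but overlapping. The part of such cells in the results below was not tested, and in sorted populations fewer cells of a type and less RNA per cell cannot be told apart.

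No member reached an adjusted p under 0.05 in PU.1 ki/ki HSCs set against wild type, and no other probe set on the array did either. Each probe set was fitted with limma on log2(intensity + 1), with Benjamini-Hochberg adjustment over all 45037, and each difference is the mean log2 value of PU.1 ki/ki minus that of wild type. At an unadjusted p under 0.05 there was 1 of the 23 member probe sets, lower in PU.1 ki/ki, beside 8.28% of all probe sets (3.68% lower and 4.6% higher). Over all probe sets this was 2072 higher and 1659 lower, which became 1558 and 2243 after a further quantile normalization, 1593 and 2130 once every array was centred on its median, and 1305 and 399 with dim probe sets left out. Centring moved the median of all differences to -0.105, so small differences below are relative to the deposited scale. The groups were separated without overlap in 3 of the 23, which is 13.0%, beside 12.1% of all probe sets. Of these 3, 1 was higher and 2 were lower in the knock-in, beside 6.62% higher and 5.46% lower over the array. The members' share therefore lay near that of the whole array. Differences were positive for 13 of the 23 and negative for 9, and 1 was at the table's minimum of 10 throughout. Their median was 0.09, beside 0.0021 over all probe sets. Without wild-type replicate 3 the members' median was -0.066. In that setting 4 members had an unadjusted p under 0.05, beside 2101 higher and 2063 lower of the 45037 probe sets. Without wild-type replicate 2 there were 3 members, beside 2368 higher and 2019 lower over all probe sets. Of the 23, 8 had a mean intensity below the median of all probe-set means (49.8), and the 15 above it had a median of 0.19, beside 0.17 over the 22542 probe sets above it.

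**Figure D1:**
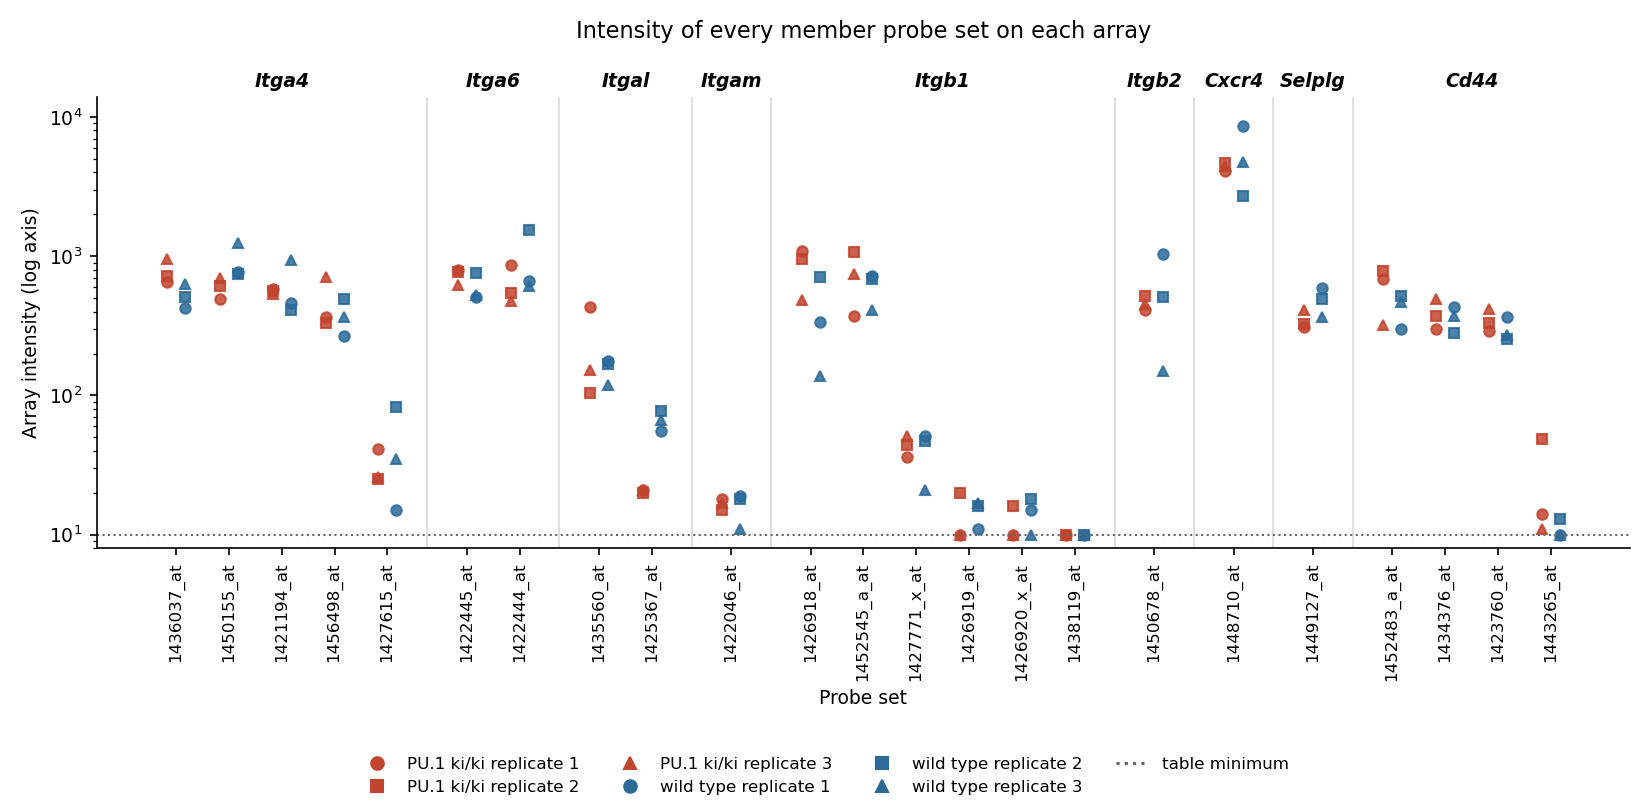
Array intensity (vertical, log axis) of each of the 23 member probe sets (horizontal, grouped by gene), with PU.1 ki/ki arrays in red to the left and wild-type arrays in blue to the right, 1 symbol per replicate and the table's minimum of 10 as a dotted line. Itgal 1425367_at separates the groups, with 20 to 21 for PU.1 ki/ki against 56 to 77 for wild type, while Cxcr4 spreads from 2721 to 8679 in wild type around the narrow PU.1 ki/ki values.

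Itga4, the alpha4 chain of the VCAM-1 receptor, was read by probe sets that pointed in opposite directions. Itga4 1436037_at read 657, 716 and 956 in PU.1 ki/ki HSCs, against 422, 510 and 635 in wild type. All PU.1 ki/ki arrays lay above all wild-type arrays, by 0.57 ± 0.23 (SE, 95% interval -0.03 to 1.17, limma adjusted p = 0.611). Itga4 1450155_at read 492, 609 and 694 in PU.1 ki/ki HSCs, against 764, 747 and 1252 in wild type. Here all PU.1 ki/ki arrays lay below all wild-type arrays, by -0.59 ± 0.27 (95% interval -1.29 to 0.10, limma adjusted p = 0.639), and by -0.35 without wild-type replicate 3. Both separations were without overlap, so the probe sets of this gene gave no common direction. The other probe sets of Itga4 overlapped between groups. Itga4 1421194_at read 580, 565 and 532 in PU.1 ki/ki HSCs, against 460, 413 and 933 in wild type, a difference of -0.01. This narrow set of PU.1 ki/ki values lay inside a wild-type range set by replicate 3, and without that array the difference was 0.36. Itga4 1456498_at read 363, 334 and 713 in PU.1 ki/ki HSCs, against 266, 490 and 364 in wild type (0.29), and without PU.1 ki/ki replicate 3 it was -0.056. Itga4 1427615_at was dim, at 41, 25 and 26 in PU.1 ki/ki HSCs, against 15, 82 and 35 in wild type (-0.23). Over the 4 brighter probe sets, pairwise Pearson correlations of log2 values across the 6 arrays were -0.18 to 0.69.

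Itga6, the alpha6 chain of the laminin receptor, also gave 1 probe set in each direction, and both overlapped. Itga6 1422445_at read 793, 768 and 621 in PU.1 ki/ki HSCs, against 507, 753 and 525 in wild type, with wild-type replicate 2 inside the PU.1 ki/ki range. The difference was 0.30 ± 0.22 (SE, limma adjusted p = 0.716), with 0.49 when wild-type replicate 2 was left out (limma adjusted p = 0.495) and 0.20 when wild-type replicate 1 was. Itga6 1422444_at read 865, 548 and 477 in PU.1 ki/ki HSCs, against 663, 1532 and 613 in wild type (-0.49 ± 0.45, adjusted p = 0.776). Its highest value was that of wild-type replicate 2, and without that array the difference was -0.065. The 2 probe sets carry the same source accession and correlated at 0.42 across the 6 arrays.

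Itgb1, the beta1 chain that pairs with alpha4 and alpha6, had the largest positive difference of any member, without passing the test. Itgb1 1426918_at read 1094, 953 and 483 in PU.1 ki/ki HSCs, against 338, 712 and 139 in wild type. The mean was 843 ± 320 for PU.1 ki/ki and 396 ± 291 for wild type (SD, n = 3 each), and PU.1 ki/ki exceeded wild type by 1.30 ± 0.69 (SE) with a 95% interval of -0.47 to 3.07 and a limma adjusted p of 0.661. The groups overlapped, and the lowest value was that of wild-type replicate 3, which counted as lost there. Without this array the difference was 0.70, without wild-type replicate 2 it was 1.87 (limma adjusted p = 0.488), and without wild-type replicates 2 and 3 it was 1.23. Itgb1 1452545_a_at, whose suffix marks probes shared by transcripts of 1 gene, read 375, 1072 and 751 in PU.1 ki/ki HSCs, against 724, 683 and 409 in wild type. Its difference was 0.19 ± 0.47, and the PU.1 ki/ki arrays held both the lowest and the highest of its 6 values. The 4 other Itgb1 probe sets were dim. Itgb1 1427771_x_at read 36 to 51 in PU.1 ki/ki HSCs, against 21 to 51 in wild type, and its suffix marks probes that can match other transcripts. Itgb1 1426919_at read 10 to 20 in PU.1 ki/ki HSCs, against 11 to 17 in wild type, 1426920_x_at read 10 to 16 in PU.1 ki/ki HSCs and 10 to 18 in wild type, and 1438119_at was at 10 on all 6 arrays. These probe sets give no level of the beta1 chain to compare.

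Itgal, the alphaL chain of LFA-1, held the member probe set with the lowest p. Itgal 1425367_at read 21, 20 and 21 in PU.1 ki/ki HSCs, against 56, 77 and 67 in wild type. The mean was 20.7 ± 0.58 for PU.1 ki/ki and 66.7 ± 10.5 for wild type (SD, n = 3 each), and no wild-type array came near the PU.1 ki/ki arrays. The difference was -1.63 ± 0.16 (SE, 95% interval -2.03 to -1.23), a 3.10-fold lower value in PU.1 ki/ki. Its unadjusted p of 0.000129 ranked 10 among 45037 probe sets, and its limma adjusted p was 0.4004, a value that no probe set went below. Over the settings of the processing that kept it, the difference ran from -1.76 to -1.17 and the adjusted p from 0.126 to 0.882. It was -1.40 without wild-type replicates 2 and 3, the arrays with lost signal. The probe set was dim, with a mean below the median of all probe sets and PU.1 ki/ki values only about 10 units above the table's minimum. Summed lymphoid markers and summed mast cell and basophil markers were also lower in PU.1 ki/ki without overlap, although the lineage-negative sort should remove mature cells. The sums of the other marker lists overlapped between groups. Erythroid and megakaryocyte markers summed to 1049, 2157 and 2397 in PU.1 ki/ki HSCs, against 632, 1222 and 1538 in wild type. Endothelial and stromal markers summed to 696, 1688 and 520 in PU.1 ki/ki HSCs, against 338, 1020 and 991 in wild type. Lymphoid markers had a sum over 9 genes of 688, 655 and 580 in PU.1 ki/ki HSCs, against 849, 831 and 1228 in wild type. Of the 9, 3 had a PU.1 ki/ki mean above the median of all probe sets, and 8 of 9 differences were negative. Cd3e, a T cell receptor subunit, read 43, 32 and 58 in PU.1 ki/ki HSCs, against 76, 98 and 150 in wild type. The exception was the T cell coreceptor gene Cd4, at 144, 53 and 100 in PU.1 ki/ki HSCs, against 58, 18 and 50 in wild type. The sum over 5 mast cell and basophil markers was 85, 136 and 133 in PU.1 ki/ki HSCs, against 282, 175 and 195 in wild type, with all 5 differences negative and none of the 5 above the median of all probe sets in PU.1 ki/ki. The part of such cells in the Itgal difference was not tested.

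The other Itgal probe set did not follow it. Itgal 1435560_at read 433, 105 and 152 in PU.1 ki/ki HSCs, against 177, 168 and 118 in wild type. Its difference was 0.33 ± 0.57 (SE, limma adjusted p = 0.887), with the opposite sign. PU.1 ki/ki replicate 1 alone lay above the wild-type range, and without it the difference was -0.26. Over the settings tried, that was the only one in which both Itgal probe sets had the same sign.

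Itgam and Itgb2, which together form Mac-1, differed by less than the spread between arrays. Itgam 1422046_at, for the alphaM chain CD11b, read 18, 15 and 17 in PU.1 ki/ki HSCs, against 19, 18 and 11 in wild type. All 6 values lay less than 10 units above the table's minimum, on arrays where Lyz2 and Mpo were bright, and the difference was 0.09 ± 0.24 (SE, limma adjusted p = 0.937), or -0.02 after centring. Of the 5 members with a promoter window, Itgam held the most GAGGAA letters, 3 matches as printed above. Itgb2 1450678_at, for the beta2 chain CD18 shared by LFA-1 and Mac-1, read 411, 516 and 456 in PU.1 ki/ki HSCs, against 1030, 506 and 149 in wild type. The PU.1 ki/ki values lay close together, inside a wild-type range whose ends were replicate 1 and replicate 3. The difference of 0.10 ± 0.73 (SE, 95% interval -1.77 to 1.98) had no stable sign, at -0.65 without wild-type replicate 3 and 0.74 without wild-type replicate 1. It was -0.06 after a further quantile normalization. Equal levels are not shown by so wide an interval.

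**Figure D2:**
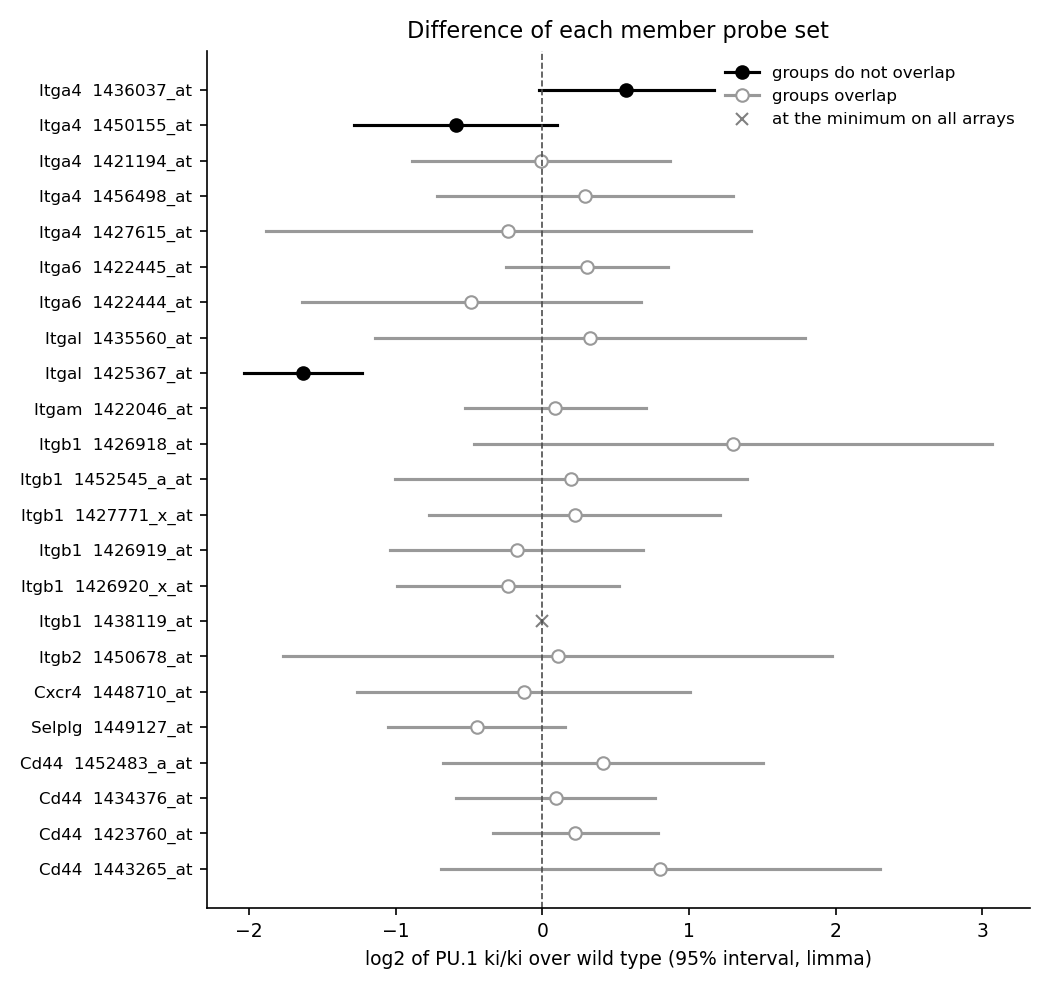
Difference of each member probe set, as the log2 value of PU.1 ki/ki minus that of wild type (horizontal) with its 95% interval from limma, 1 row per probe set. Filled black points mark the 3 probe sets whose groups do not overlap, and the interval of Itgal 1425367_at (-2.03 to -1.23) is the only one that does not reach 0.

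Cxcr4, the receptor that retains HSCs in the marrow, was bright on every array and differed by less than the spread between wild-type arrays. Cxcr4 1448710_at read 4122, 4667 and 4477 in PU.1 ki/ki HSCs, against 8679, 2721 and 4766 in wild type. The mean was 4422 ± 277 for PU.1 ki/ki and 5389 ± 3027 for wild type (SD, n = 3 each). The PU.1 ki/ki arrays sat within a narrow band, and the wild-type arrays lay above it, below it and just above it. The difference was -0.13 ± 0.44 (SE, 95% interval -1.26 to 1.01, limma adjusted p = 0.955), and its sign turned with wild-type replicate 1, giving 0.29 without that array. Without wild-type replicates 2 and 3 it was -0.97, since the highest value was then the only wild-type one.

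Selplg, encoding the selectin ligand PSGL-1, was lower in PU.1 ki/ki by less than the test could separate. Selplg 1449127_at read 308, 328 and 412 in PU.1 ki/ki HSCs, against 589, 495 and 364 in wild type. Wild-type replicate 3 lay inside the PU.1 ki/ki range and the other wild-type arrays lay above it. The difference was -0.45 ± 0.24 (SE, 95% interval -1.05 to 0.16, limma adjusted p = 0.661), and it was negative under every setting tried, from -0.76 to -0.29.

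Cd44, the hyaluronan receptor, had positive differences in all 4 probe sets, each overlapping between groups. Cd44 1452483_a_at read 685, 779 and 319 in PU.1 ki/ki HSCs, against 300, 515 and 466 in wild type (0.41 ± 0.43 SE, limma adjusted p = 0.792). With each array left out this ran from 0.17, without PU.1 ki/ki replicate 2, to 0.81, without PU.1 ki/ki replicate 3. Cd44 1434376_at read 300, 369 and 496 in PU.1 ki/ki HSCs, against 431, 283 and 373 in wild type (0.09). Cd44 1423760_at read 292, 334 and 417 in PU.1 ki/ki HSCs, against 366, 255 and 273 in wild type (0.22). The last 2 correlated at 0.89 across the 6 arrays and the first at -0.70 and -0.54 with them, so the array that was highest differed between probe sets of this gene. Cd44 1443265_at lay near the minimum, at 14, 49 and 11 in PU.1 ki/ki HSCs, against 10, 13 and 10 in wild type. The sign of 1434376_at turned under further quantile normalization (-0.07) and under centring of the arrays (-0.02).

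The wild-type arrays varied more than the PU.1 ki/ki arrays at the members, as they did over the whole array. Among the 15 brighter member probe sets, the SD of log2 values was wider in wild type for 10, beside 74.0% of the 22542 brighter probe sets. Its median over the 15 was 0.28 in PU.1 ki/ki HSCs, against 0.42 in wild type, beside 0.42 for PU.1 ki/ki and 0.76 for wild type over all brighter probe sets. Among these 15, the narrowest PU.1 ki/ki values belonged to Cxcr4 (SD 0.09 in PU.1 ki/ki HSCs, against 0.84 in wild type) and Itgb2 (0.16 for PU.1 ki/ki and 1.41 for wild type), together with Itga4 1421194_at (0.06 for PU.1 ki/ki and 0.64 for wild type). The opposite held for Itgal 1435560_at, with an SD of 1.06 in PU.1 ki/ki HSCs, against 0.32 in wild type. It also held for Itgb1 1452545_a_at (0.769 in PU.1 ki/ki, 0.452 in wild type) and Itga4 1456498_at (0.599 and 0.439). Cd44 1452483_a_at (0.695 and 0.414) and Cd44 1434376_at (0.364 and 0.307) were wider in PU.1 ki/ki as well.

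**Figure D3:**
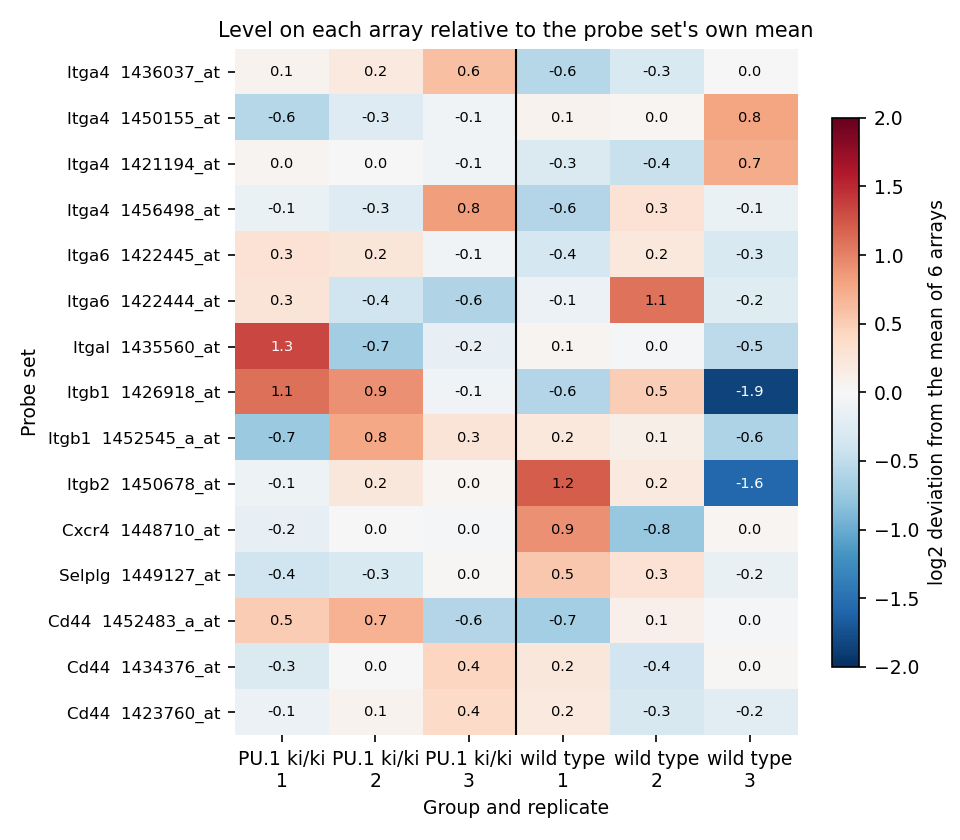
Level of the 15 brighter member probe sets (rows) on each of the 6 arrays (columns, PU.1 ki/ki left of the line and wild type right of it), as the log2 deviation from the probe set's mean over the 6 arrays. No column is high or low throughout, and the deepest values belong to Itgb1 1426918_at and Itgb2 on wild-type replicate 3.

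The nearest patterns on the array were taken for the 7 members whose brightest probe set averaged at least 200. Likeness was the Pearson correlation of log2 values over the 6 arrays, among 9935 to 9938 named probe sets of that brightness. The nearest to Cxcr4 was Rnf181 (r = 0.998), and to Itgb2 it was Mcm7 (0.990). Selplg was nearest to Eps15 (0.994), Itga6 to Ring1 (0.993), Itga4 to Lrrc8c (0.987), Cd44 to Akap13 (0.972) and Itgb1 to Mapkapk5 (0.970). With only 6 arrays, 5 to 62 probe sets correlated above 0.95 with each of these members, so such likeness is easily met. Rnf181 read 502, 532 and 546 in PU.1 ki/ki HSCs, against 1021, 330 and 566 in wild type, the same order as Cxcr4 among the wild-type arrays.

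Genes that work with the members were described in 6 lists chosen by function, of which 136 of 146 entries were measured. None of the 136 had a limma adjusted p under 0.05, and 17 had an unadjusted p under 0.05, beside 8.66% of all 18193 genes (brightest probe set of each, 4.39% higher and 4.27% lower). Groups did not overlap for 23 of the 136 (16.9%), beside 12.8% of all genes, with 6 above and 17 below wild type. Among 19 other integrin subunits none separated the groups, and the median difference was 0.0036. Itga2b, the platelet alphaIIb chain, read 223 to 373 in PU.1 ki/ki HSCs, against 213 to 278 in wild type (0.23). Itgb3, its partner, read 156, 409 and 2051 in PU.1 ki/ki HSCs, against 218, 388 and 219 in wild type (0.94), and without PU.1 ki/ki replicate 3 the difference was -0.066. Its other probe set had the opposite sign. Itgb7, the other beta chain that pairs with alpha4, read 164 to 561 in PU.1 ki/ki HSCs, against 115 to 517 in wild type (0.20).

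Of 35 genes that activate integrins or link them to actin, 2 were higher without overlap in PU.1 ki/ki and 6 were lower. Among all genes 6.44% were higher without overlap and 6.36% were lower. The list's median was 0.19, or -0.0229 without wild-type replicate 3. Pxn, encoding the focal adhesion adaptor paxillin, read 460, 496 and 760 in PU.1 ki/ki HSCs, against 1557, 1729 and 1342 in wild type (-1.46 ± 0.24 SE, limma adjusted p = 0.431), and both further probe sets pointed the same way. The Src-family kinase Fgr read 58, 60 and 39 in PU.1 ki/ki HSCs, against 83, 376 and 115 in wild type (-1.56, or -0.91 without wild-type replicate 2), and its other probe set had the opposite sign. Rap1a, a small GTPase that switches integrins on, read 926, 794 and 1620 in PU.1 ki/ki HSCs, against 513, 527 and 80 in wild type (1.92), and its difference was 1.03 without wild-type replicate 3. Fyb, an adaptor between antigen-receptor signals and integrins, read 246, 234 and 375 in PU.1 ki/ki HSCs, against 49, 74 and 192 in wild type (1.64). The talin gene Tln1, whose product binds beta-chain tails, read 2277, 2391 and 2199 in PU.1 ki/ki HSCs, against 3270, 3030 and 2612 in wild type (-0.37, no overlap), and its 2 other probe sets had the opposite sign. Fermt3, encoding kindlin-3, the blood-cell partner of talin, overlapped (0.67), with all 3 other probe sets opposite in sign. It gave 0.25 without wild-type replicate 2 and 1.01 without wild-type replicate 3. Rap1b, the close relative of Rap1a, differed by 0.02, or by -0.09 after centring.

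The list of niche ligands and selectins concerns genes that stromal, endothelial or blood cells use to display ligands to the members. Vcam1 read 84 to 107 in PU.1 ki/ki HSCs, against 46 to 181 in wild type (-0.04). Cxcl12 read 175, 261 and 75 in PU.1 ki/ki HSCs, against 18, 27 and 314 in wild type (1.46, overlapping). The difference was 0.69 without wild-type replicate 1 and 2.72 without wild-type replicate 3, and 1 of its 2 other probe sets had the opposite sign. Of 17 genes 1 separated the groups, beside 12.8% of all genes. This was Lamb2, a laminin beta chain, at 40, 51 and 85 in PU.1 ki/ki HSCs, against 93, 114 and 118 in wild type (-0.94).

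Of 15 genes for building selectin ligands, 2 were without overlap, both lower in PU.1 ki/ki, beside 6.36% lower without overlap among all genes. Fut7, the fucosyltransferase that completes the sialyl Lewis x group, read 127, 114 and 130 in PU.1 ki/ki HSCs, against 210, 259 and 173 in wild type (-0.77 ± 0.19 SE, limma adjusted p = 0.4997). B4galt1, a galactosyltransferase, read 347, 406 and 574 in PU.1 ki/ki HSCs, against 582, 660 and 954 in wild type (-0.73, adjusted p = 0.604). The list's median was 0.27, opposite in sign to these 2 genes, and 0.187 to 0.466 with each array left out, the ends being without wild-type replicate 1 and without wild-type replicate 3. Tpst2, a tyrosine sulfotransferase that acts on PSGL-1, differed by 0.27 with overlap, and by 0.044 to 0.518 with each array left out, the ends being without wild-type replicate 1 and without wild-type replicate 2.

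Around CXCR4, 4 of 23 signalling genes were higher without overlap in PU.1 ki/ki and 1 was lower, beside 6.44% higher and 6.36% lower among all genes. The list's median was 0.11, and it ran from 0.10 to 0.54 with each array left out. Cd74, the invariant chain, which also forms a receptor complex with CXCR4, read 1211, 1447 and 1208 in PU.1 ki/ki HSCs, against 397, 295 and 642 in wild type (1.60 ± 0.32 SE, limma adjusted p = 0.463). The G protein gamma subunit Gng2 read 1349, 724 and 765 in PU.1 ki/ki HSCs, against 199, 475 and 298 in wild type (1.57), and all 3 further probe sets pointed the same way. Grk6, a kinase that desensitises chemokine receptors, read 906, 870 and 803 in PU.1 ki/ki HSCs, against 914, 1055 and 911 in wild type (-0.16), and 1 of its 2 other probe sets had the opposite sign. Ackr3, the other CXCL12 receptor, was at the table's minimum of 10 on all 6 arrays.

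Of 27 other homing and adhesion receptors, none was higher without overlap in PU.1 ki/ki and 7 were lower, beside 6.44% higher and 6.36% lower among all genes. The junction molecule Jam3 read 102, 73 and 74 in PU.1 ki/ki HSCs, against 2501, 107 and 114 in wild type (-1.92), with a difference of -0.43 without wild-type replicate 1. The fractalkine receptor Cx3cr1 read 32, 29 and 43 in PU.1 ki/ki HSCs, against 48, 53 and 138 in wild type (-1.03, or -0.55 without wild-type replicate 3), and its other probe set had the opposite sign. Cxcr5 and Ccr1, outside the naming rule, were also among the 7 and lay near the table's minimum of 10. Cxcr5 read 10, 11 and 10 in PU.1 ki/ki HSCs, against 15, 20 and 29 in wild type. Ccr1 read 12, 10 and 10 in PU.1 ki/ki HSCs, against 18, 19 and 20 in wild type. Further probe sets of opposite sign were found for Cd47, Cd164 and Ccr9, described below. None of the 7 passed after adjustment.

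**Figure D4:**
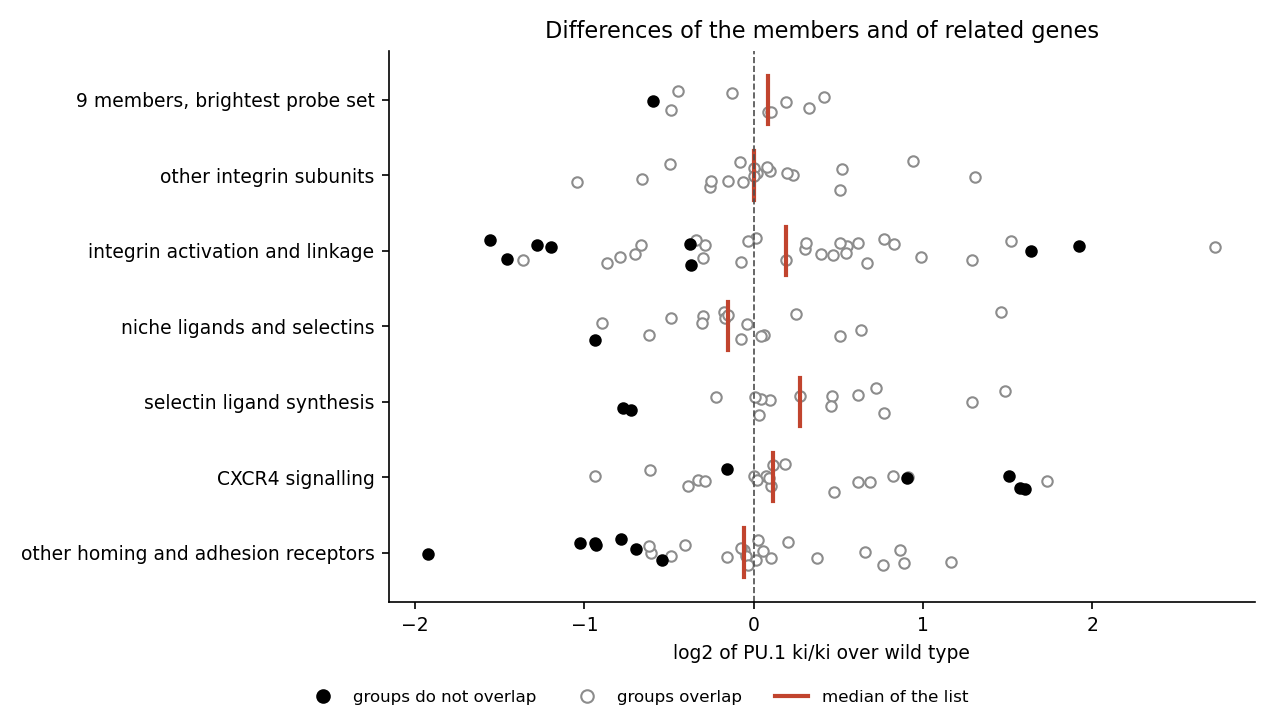
Log2 differences of PU.1 ki/ki minus wild type (horizontal) of the brightest probe set of each member and of each gene in the 6 lists (rows), with the list's median as a red bar. Filled points mark genes whose groups do not overlap, which were 1 of the 9 members and 23 of the 136 related genes, beside 12.8% of all genes.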

How the data were processed

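The members and the gene lists were chosen with earlier results of these data known. Values were the deposited intensities of 6 single-colour arrays, 1 per probe set and array, made by the authors with RMA per the submitters' processing notes (no version stated in the sources). They are whole numbers on a linear scale with a minimum of 10, and a return from the log2 scale of RMA is not described. From these, log2(intensity + 1) was fitted with genotype as the only term in limma 3.58.1 (R 4.3.3), over 45037 probe sets after 64 controls were left out, and groups came from the sample titles. In simulated data with the spread of these arrays the fit called none of the changes put in, which were log2 differences of 1 and 2. The simulation gave both groups the same pooled spread, although the wild-type arrays varied more. A lack of calls therefore does not show equal levels. The number of arrays limits the precision. Gene names came from the platform annotation, with 1 symbol for 34945 probe sets, several for 932 (left unnamed) and 9160 not listed. For lists the brightest probe set of each gene was kept, and of 146 list entries the 136 with a named probe set were used. The rule for naming took every member probe set, the 2 highest and 2 lowest genes without overlap in each list, a fixed panel (Fermt3, Tln1, Rap1b, Itga2b, Itgb3, Itgb7, Vcam1, Cxcl12, Ackr3, Fut7 and Tpst2, with 1 further gene not reported here), the nearest pattern of each bright member, and Spi1. Protein sequences were not used here. A description field about embryos contradicts the remaining labels and was not used. Alternatives were a further quantile normalization, centring, leaving out dim probe sets, a pseudocount of 16, a trended and robust prior, array weights, a replicate block, each array left out and wild-type replicates 2 and 3 left out together, and for the lists the mean of each gene's probe sets.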

Additional observations from a re-analysis of the deposited data

How the results depend on the processing

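No probe set reached an adjusted p under 0.05 in limma under any alternative. Of 301 recomputed differences of the members, 272 kept their direction and 29 reversed. This counts signs only, as no probe set passed the threshold in any setting. The number of members at an unadjusted p under 0.05 was 0 with dim probe sets left out, since the 1 such probe set is dim. It was 2 after a further quantile normalization and 1 to 4 with each array left out. Over all probe sets that number was 1704 with dim probe sets left out and 2535 to 7183 with each array left out. Members without overlap numbered 4 to 8 with each array left out (18.2 to 30.3% of all probe sets) and 14 without wild-type replicates 2 and 3 (51.5% of all probe sets), fewer arrays being easier to separate. The members' median difference was -0.066 to 0.20 with each array left out and -0.090 without wild-type replicates 2 and 3. A replicate block gave 3 members at an unadjusted p under 0.05 and 3369 of all probe sets, and no adjusted call. Deviations from the group means correlated at -0.016, 0.021 and -0.017 between same-numbered arrays, so no pairing by number was seen. Pairing is not excluded by this, since the deviations also hold the signal lost on wild-type replicates 2 and 3.

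Signs that reversed did so as follows, with no cause tested. After centring, Cd44 1434376_at gave -0.017, Itgam -0.0195, Itgb2 -0.0032 and Rap1b -0.091. After a further quantile normalization, Cd44 1434376_at gave -0.073, Itgb2 -0.061 and Rap1b -0.0497. With array weights, Itga4 1421194_at gave 0.051 and Itgb2 -0.067. Without wild-type replicates 2 and 3, Cd44 gave -0.090 (1423760_at) and -0.18 (1434376_at), Itga4 0.28 (1421194_at) and 0.95 (1427615_at), and Itgam -0.18. In the same setting Itgb1 gave 0.19 (1426919_at), -0.23 (1427771_x_at) and -0.11 (1452545_a_at), and Itgb2 -1.16. With each array left out, the range was -0.10 to 0.26 for Cd44 1434376_at, -0.54 to 0.29 for Cxcr4, and -0.23 to 0.36, -0.82 to 0.36 and -0.056 to 0.51 for Itga4 1421194_at, 1427615_at and 1456498_at. It was -0.26 to 0.75 for Itgal 1435560_at, -0.15 to 0.22 for Itgam, -0.18 to 0.45 and -0.15 to 0.61 for Itgb1 1427771_x_at and 1452545_a_at, and -0.65 to 0.74 for Itgb2. Among related genes it was -0.066 to 1.79 for Itgb3, -0.37 to 0.71 for Itgb7, -0.21 to 0.18 for Rap1b and -0.58 to 0.40 for Vcam1. Signal near the minimum of 10 limits Itgam, the dim Itgb1 probe sets, Itgal 1425367_at and Cd44 1443265_at.

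The median of the list for integrin activation and linkage was 0.31 with the mean of each gene's probe sets, 0.084 after centring, 0.054 after a further quantile normalization, -0.0084 with dim probe sets left out and -0.0495 without wild-type replicates 2 and 3. For other integrin subunits it was -0.10 after centring, -0.076 after the quantile normalization and 0.10 without wild-type replicates 2 and 3. Leaving out wild-type replicate 3 moved other homing and adhesion receptors to -0.38, and leaving out wild-type replicate 1 moved CXCR4 signalling to 0.54.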

Other observations

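Several related genes outside the naming rule also separated the groups without passing adjustment in limma, and they were chosen after their values were seen. Cd47, whose product restrains phagocytosis, read 5174, 5420 and 4769 in PU.1 ki/ki HSCs, against 6336, 8489 and 7650 in wild type (log2 difference -0.54). One of its 4 other probe sets had the opposite sign. Cd164, a sialomucin that takes part in CXCL12 responses, read 525, 482 and 553 in PU.1 ki/ki, against 921, 952 and 675 in wild type (-0.69), and its other probe set had the opposite sign. The chemokine receptor Ccr9 read 74, 50 and 60 in PU.1 ki/ki, against 113, 97 and 146 in wild type (-0.94), and 2 of its 4 other probe sets had the opposite sign.

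Rasgrp2, the exchange factor that loads Rap1, read 118, 158 and 201 in PU.1 ki/ki, against 310, 514 and 286 in wild type (-1.20). All 3 of its other probe sets had the opposite sign. The vinculin gene Vcl read 490, 469 and 442 in PU.1 ki/ki, against 642, 566 and 609 in wild type (-0.37), and its other probe set had the opposite sign. Tln2, the second talin gene, read 55, 54 and 52 in PU.1 ki/ki, against 78, 169 and 174 in wild type (-1.28), and both other probe sets had the opposite sign. Arrb1, an arrestin of chemokine receptors, read 1241, 799 and 892 in PU.1 ki/ki, against 724, 408 and 454 in wild type (0.91). Gnai2, the inhibitory G protein subunit downstream of CXCR4, read 2165, 1876 and 1843 in PU.1 ki/ki, against 1572, 276 and 750 in wild type (1.51, or 0.85 without wild-type replicate 2), and its other probe set had the opposite sign.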
